A study of Mus musculus with 30 samples.

Results

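The genes that copy DNA were followed through a time course of cultured mouse extraocular muscle. These are the small muscles that turn the eyeball. The replication genes were 43 named genes: the subunits of the origin recognition complex, the factors that load and start the replicative helicase, the helicase itself, the sliding clamp and its loader, the replicative polymerases, the enzymes that finish the lagging strand, the single-strand binding protein, and the makers of nucleotides and new chromatin. A probe set, the group of short probes that reads out a transcript on an Affymetrix array, was taken only where its platform symbol was one of these genes alone, and the probe set with the highest mean over 15 arrays stood for its gene. Of the 43 genes, 42 were found, 41 with an A array probe set and 16 with one on the B type, out of 18193 genes with such a probe set on either type. Chaf1a had none and was not analysed here. Gins2 was found on the B arrays alone.

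Total RNA was measured at 0, 4, 12, 24 and 48 h with 3 arrays per time on each array type, 30 arrays in all. The titles give cell culture of extraocular muscle for all groups and differ in time, array type and replicate; the source name of 1 B array, of 0 h, gives leg muscle instead. The labels give no strain, age, genotype or medium, and do not say what began at 0 h or whether arrays of a time came from separate cultures. The p-values therefore set the differences between times only against how far arrays of a time lie apart, and this spread may be technical.

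Replication is prepared when the origin recognition complex, CDC6 and CDT1 load the MCM ring onto DNA, and it starts when CDC45, the GINS complex and MCM10 turn that ring into a working helicase. In proliferating cells many of these genes are transcribed ahead of S phase under the E2F factors, which are held in check by the retinoblastoma protein. Myoblasts, the dividing precursors of muscle fibres, leave the cell cycle before they fuse, and genes of this group are commonly read as a sign of how much a culture divides.

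The starts of some of these genes carried letters that E2F factors are known to bind. RefSeq windows of build GRCm38.p6, running from 250 bases before to 50 bases after the annotated start, were found for 36 of the genes (44 windows); none was at hand for Rfc2, Pole, Gins1, Gins2, Gmnn, Mcm4 and Prim2. The letters TTTCCCGC, TTTGGCGC, TTTCGCGC or TTTGCCGC, searched on both strands with overlapping matches allowed, were found in 13 of the 36 genes (36.1%), against 2.6% of 27025 genes with a window and 5.04% of 6449 genes tested on the A arrays. The following stretches, printed 5′ to 3′ on the strand of the gene, all lie before the start, and capitals mark the E2F letters and, where noted, the CCAAT box (CCAAT or ATTGG). Mcm6, Mcm7 and Cdc6 are shown because their intensities were lower at 48 h than at 0 h; Mcm5, Orc1, Pola1 and Orc3 because they hold the same letters and passed no test.
Mcm6 (chr1:128359725-128359835, minus strand): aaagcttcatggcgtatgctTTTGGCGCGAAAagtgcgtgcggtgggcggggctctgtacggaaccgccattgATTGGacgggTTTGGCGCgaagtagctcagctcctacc
Mcm7 (chr5:138172021-138172068, minus strand): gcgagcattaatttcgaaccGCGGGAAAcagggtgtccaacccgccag
Cdc6 (chr11:98907993-98908040, plus strand): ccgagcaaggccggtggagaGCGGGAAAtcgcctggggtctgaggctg
Mcm5 (chr8:75109336-75109387, plus strand): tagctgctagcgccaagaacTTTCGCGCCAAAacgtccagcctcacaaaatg
Orc1 (chr4:108579407-108579453, plus strand): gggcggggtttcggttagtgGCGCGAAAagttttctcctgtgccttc
Pola1 (chrX:93632266-93632313, minus strand): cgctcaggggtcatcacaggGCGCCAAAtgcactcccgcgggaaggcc
Orc3 (chr4:34614956-34615003, minus strand): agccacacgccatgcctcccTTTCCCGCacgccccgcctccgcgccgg

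The Mcm6 stretch held the E2F letters 3 times, in an overlapping pair and once more downstream, with the CCAAT box beside the last. In Mcm5 a pair of matches overlapped. Among the genes lower at 48 h, 4 of the 11 with a window held the E2F letters (36.4%), and these were Cdc6, Cdt1, Mcm6 and Mcm7. Among the genes tested and lower neither at 24 nor at 48 h, 9 of 21 did (42.9%). The second group is made of genes that missed the threshold. It holds Mcm3, Mcm5, Rfc3 and Lig1, which carry the letters and whose 48 h arrays all lay below 0 h. These shares therefore cannot compare genes that fell with genes that did not. The CCAAT box, which binds the factor NF-Y, was found in 23 of 36 genes (63.9%), against 41.1% of all genes with a window and 43.1% of those tested. It was present in 8 of the 11 genes lower at 48 h (72.7%) and in 12 of the 21 lower at neither time (57.1%). The letters TTTGAA or TTCGAA, the element through which mitotic genes are held down outside their phase, were found in 6 of 36 (16.7%), against 21.7% of all genes with a window and 16.1% of those tested. A match describes the letters in a window and shows no binding, and a window without one says only that these letters are not in it. Rrm2, Rrm1 and Pcna were lower at 48 h and held the CCAAT box, in capitals here, without the E2F letters.
Rrm2 (chr12:24708184-24708228, plus strand): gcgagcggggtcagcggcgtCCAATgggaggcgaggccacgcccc
Rrm1 (chr7:102441584-102441674, plus strand): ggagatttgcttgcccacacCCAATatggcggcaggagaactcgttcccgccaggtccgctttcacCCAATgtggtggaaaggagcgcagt
Pcna (chr2:132253243-132253287, minus strand): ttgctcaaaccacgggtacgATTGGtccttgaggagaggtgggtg

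On the A arrays the replication genes lay lower from 24 h on. Levels are deposited intensities, given as mean ± SD (n = 3), and changes are fitted differences in log2(intensity + 16), given ± SE and tested with limma, a linear model that shares its estimate of spread across probe sets. At 24 h against 0 h, 9 of the 40 tested genes were lower and 0 were higher at a limma adjusted p under 0.05, where 2.33% of all 13577 probe sets tested were lower and 3.23% higher. The 9 were Cdt1, Mcm2, Mcm4, Mcm7, Mcm10, Pcna, Prim1, Rpa2 and Rrm2. At 48 h 11 of 40 were lower, against 2.50% of all probe sets, and 1 was higher, against 4.20%. Those lower were Cdc6, Cdt1, Mcm6, Mcm7, Mcm10, Cdc45, Pcna, Rpa2, Rrm1, Rrm2 and Chaf1b, and the one that rose was Orc4. The called genes kept more than 50% of their 0 h mean, except Mcm6 at 48 h, which was at 47.0%. In RNA from a whole culture, fewer dividing cells and less RNA per cell cannot be told apart.

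The genes that missed the threshold mostly lay on the same side. The fitted change was below 0 for 39 of 40 genes at 24 h and 37 of 40 at 48 h, where 51.8% and 47.5% of all probe sets were below 0. The median log2 change of the 40 genes was -0.45 at 24 h and -0.44 at 48 h, beside -0.01 and 0.02 over all probe sets. All 3 arrays lay below all 3 of 0 h for 26 genes at 24 h (12.7% of all probe sets) and for 25 at 48 h (10.5%). Both comparisons use the same 0 h arrays, so they are not independent of each other.

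These counts leaned on single arrays. Leaving out 0 h replicate 1 or 24 h replicate 1 left 4 genes at 24 h, and leaving out 0 h replicate 3 or 24 h replicate 2 left 5; the highest such count was 12. At 48 h the count of 12, both directions together, became 5 when 0 h replicate 3 was left out and 6 when 48 h replicate 3 was, with 15 as the highest. The genes that passed at 48 h in all 24 alternative fits were Mcm7, Mcm10, Pcna, Rpa2 and Rrm2, and at 24 h Mcm7, Mcm10 and Cdt1.

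**Figure D1:**
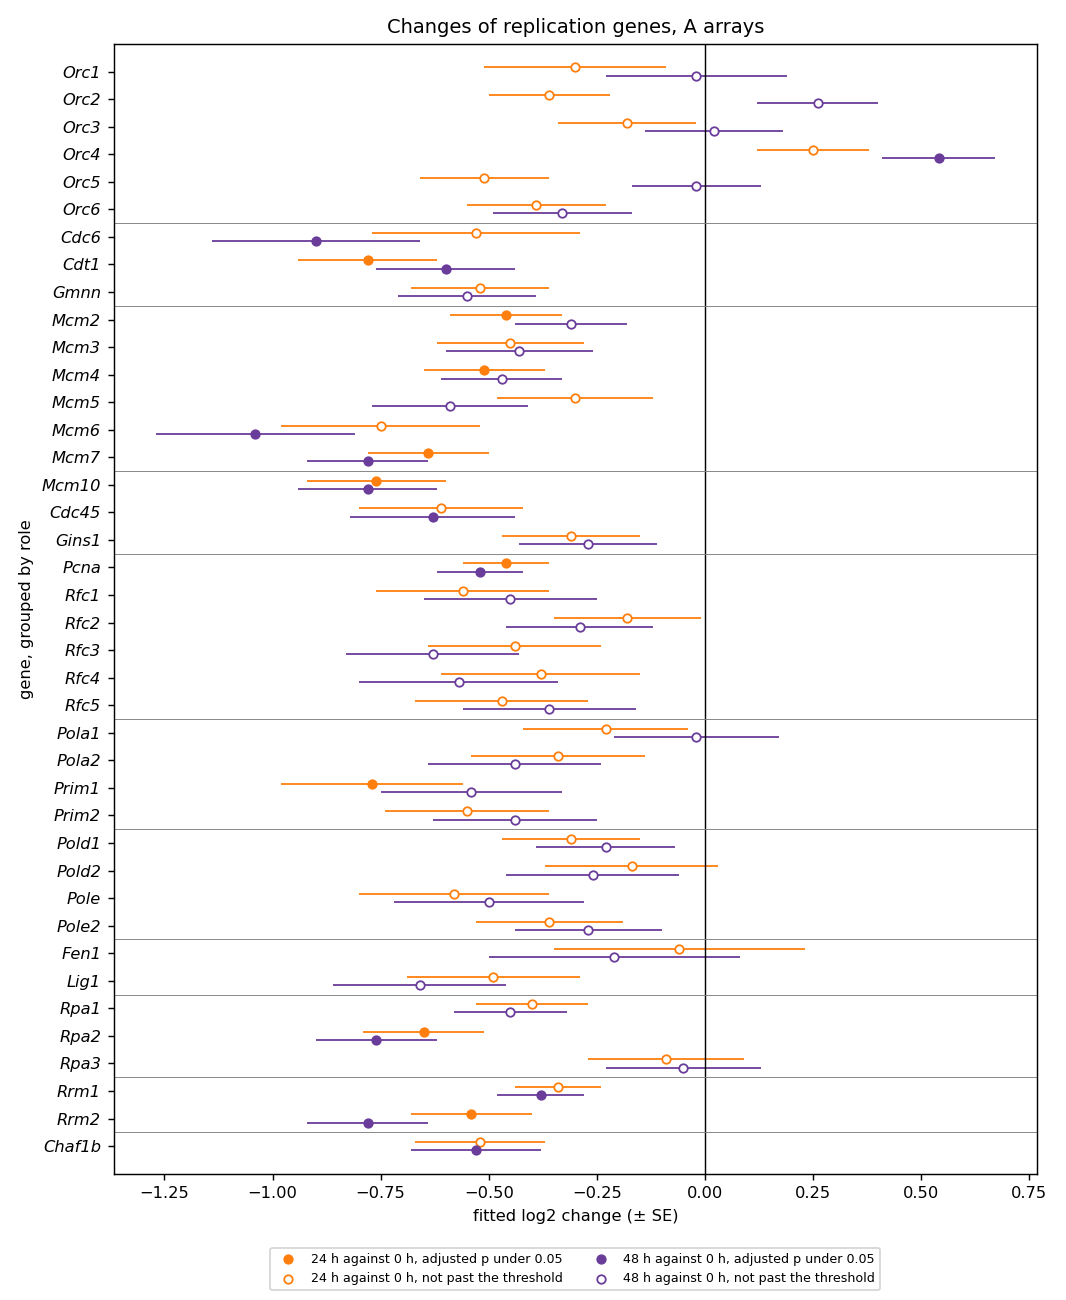
Fitted log2 change of each of the 40 replication genes tested on the A arrays at 24 h (orange) and 48 h (purple) against 0 h, in rows grouped by role, with bars of 1 standard error either side and filled points for an adjusted p under 0.05. Nearly every point lies left of 0, Mcm6 lies farthest left at 48 h (-1.04), and the origin recognition complex at the top holds the points to the right of 0.

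No gene was called at 4 or 12 h. With limma, 0 of 40 genes passed at 4 h (0.0295% of all probe sets lower) and 0 at 12 h (0.118% lower, 0.368% in either direction), while 9 and 10 genes were lower at an unadjusted p under 0.05, where 2.77% and 6.57% of all probe sets were. Without 12 h replicate 3, 2 genes passed at 12 h: Prim1 (log2 change -0.87, adjusted p = 0.0305) and Rrm2 (-0.54, adjusted p = 0.0382). The median change of the 40 genes was -0.21 at 4 h and -0.19 at 12 h, and 32 and 33 genes were below 0, where 48.2% and 49.8% of all probe sets were. Between successive times 0 genes passed at 12 h against 4 h (0.295% of all probe sets in either direction), and 3 were lower at an unadjusted p under 0.05 (6.86% of all probe sets). None passed at 24 h against 12 h either (0 genes with limma; 0.0884% of all probe sets in either direction). There 37 of 40 changes were below 0 (51.0% of all probe sets), and 9 genes were lower at an unadjusted p under 0.05 (3.68%). The mean was highest at 0 h for 27 of the 40 genes and lowest at 24 or 48 h for 16 and 19 of them; over all probe sets 20.1% were highest at 0 h, and 21.9% and 20.7% lowest at those times. An F-test over the 4 later times passed for 11 genes, against 7.59% of all probe sets. Leaving out 0 h replicate 1 lowered that to 5, leaving out 48 h replicate 1 or 3 to 6, and leaving out 4 h replicate 1 or 24 h replicate 1 or 2 to 7. It was also 7 without the filter on dim probe sets and 6 without the intensity trend.

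**Figure D2:**
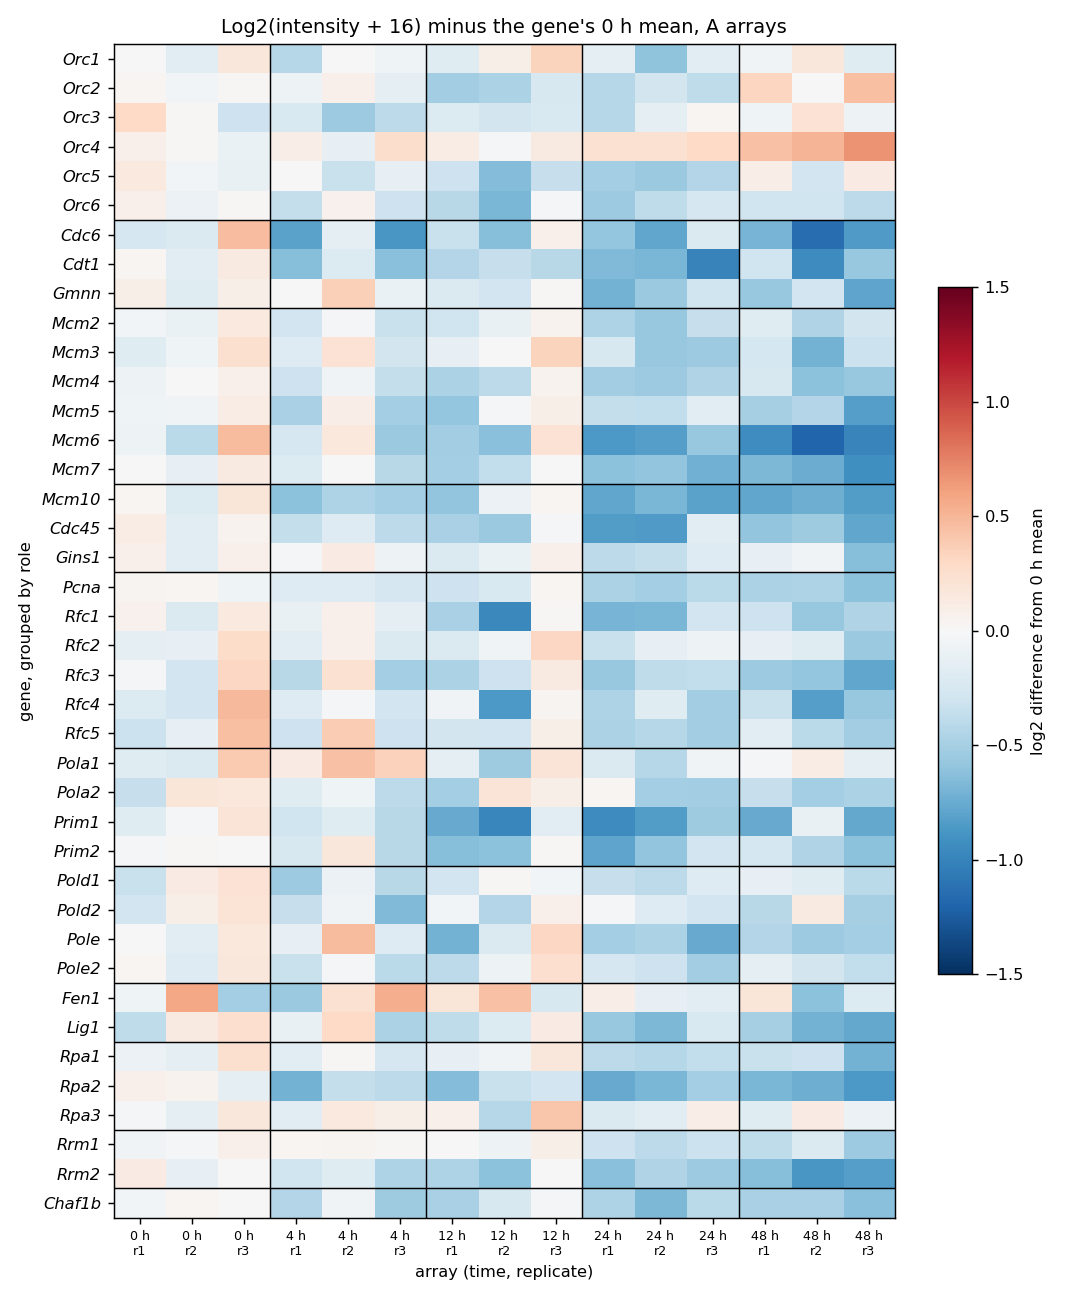
Log2(intensity + 16) of each of 40 replication genes on each of 15 A arrays, minus the gene's mean at 0 h, with blue for lower and red for higher, genes in rows by role and arrays in columns by time. The columns of 24 and 48 h are blue for most rows, and 0 h replicate 3, 4 h replicate 2 and 12 h replicate 3 stand out as redder than the other arrays of their times.

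The origin recognition complex, the ring of proteins that marks where replication can begin, had 1 gene called against 0 h, Orc4 at 48 h, when its genes lay on both sides of their 0 h levels. At 24 h 5 of its 6 genes were below 0 with a median log2 change of -0.33, and 0 passed (limma; 3 at an unadjusted p under 0.05, where 9.89% of all probe sets were lower). At 48 h its median was 0, with 3 of 6 genes below 0, while all 34 tested genes outside the complex were below 0 with a median of -0.49. From 24 to 48 h all 6 changes on the A arrays were above 0, from 0.06 to 0.62, and 1 gene, Orc2, passed (0.545% of all probe sets were higher). An Orc1 probe set on the B arrays went the other way over this step (log2 change -0.52, limma adjusted p = 0.793). Outside the complex the median of that step was -0.03 and 0 of 34 passed (limma; 0 higher or lower at an unadjusted p under 0.05). The difference between the complex and the other genes was not tested.

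Orc4 was the gene that rose. Orc4 read 634.5, 612 and 563 at 0 h, 647, 553 and 727 at 4 h, 650.3, 589 and 665 at 12 h, 707, 711 and 746 at 24 h, and 820.1, 865 and 969 at 48 h. The arrays of 24 h and of 48 h all lay above those of 0 h, and the arrays of 4 and 12 h overlapped them. The mean was 603 ± 36.5 at 0 h and 884.5 ± 76.3 at 48 h (SD, n = 3), a log2 change of 0.54 ± 0.13 (SE, limma adjusted p = 0.0147). The rise rests on this probe set: the other probe sets of Orc4 had changes of 0.01 and 0.10 and did not pass. It did not pass with median scaling, without 0 h replicate 3 or without 48 h replicate 3, and its adjusted p over 24 alternative fits ran from 0.011 to 0.0709.

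Orc2 rose from 24 to 48 h. Orc2 read 595, 564.5 and 591 at 0 h, 554, 618 and 524 at 4 h, 402, 416 and 490.3 at 12 h, 429, 477 and 444 at 24 h, and 734, 581.5 and 806.5 at 48 h. The 12 and 24 h arrays lay below all arrays of 0 h, and the 48 h arrays lay above all of 24 h. The log2 change from 24 to 48 h was 0.62 ± 0.14 (SE, limma adjusted p = 0.0483), and against 0 h it was -0.36 ± 0.14 (SE, limma adjusted p = 0.143) at 24 h and 0.26 ± 0.14 (SE, limma adjusted p = 0.316) at 48 h. Its other probe sets had changes of 0.60 and 0.42 over the same step and did not pass. The call of Orc2 was lost under most alternatives, 12 of the 15 fits without an array among them.

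Orc5 had the same course without passing a test, with means of 463 ± 46.3 at 0 h, 320.5 ± 13.7 at 24 h and 459 ± 72.1 at 48 h. Its 24 h arrays lay below those of 0 h (limma adjusted p = 0.0619) and its 48 h arrays overlapped them. Orc3 and Orc1, the latter with a signal near the filter on dim probe sets, ended at 101% and 98.3% of their 0 h means. Orc6 was at 76.0% at 24 h and 79.2% at 48 h, with all 3 arrays of each below 0 h and no call. On the A arrays Orc1 had log2 changes of -0.30 at 24 h and -0.02 at 48 h. On the B arrays another Orc1 probe set, well above the filter with a mean of 1801, had changes of 0.30 and -0.23, and neither passed. All 3 of its 24 h arrays lay above 0 h, and all 3 of its 48 h arrays lay below those of 24 h.

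Of the licensing factors, which load the MCM ring, Cdt1 and Cdc6 fell. CDT1 brings the ring to the origin, and the change of its transcript at 24 h was the largest of the 40 genes. Cdt1 read 3092, 2692 and 3318 at 0 h, 1937, 2613 and 1959.6 at 4 h, 2223, 2381 and 2259 at 12 h, 1909, 1873 and 1504.5 at 24 h, and 2462.5, 1558 and 2029 at 48 h. All arrays from 4 h on lay below all arrays of 0 h. The mean went from 3034 ± 317 to 1762 ± 224 at 24 h, a log2 change of -0.78 ± 0.16 (SE, limma adjusted p = 0.00818), and the change at 48 h was -0.60 ± 0.16 (SE, limma adjusted p = 0.0313). The call at 48 h was lost in 6 of 24 alternative fits, and that at 24 h in 0. Another Cdt1 probe set passed at 24 h (-0.69, adjusted p = 0.00893) and not at 48 h (-0.39, adjusted p = 0.129).

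The transcript of Cdc6, whose protein is the partner of CDT1, reached 279.5 ± 45.8 at 48 h from 544 ± 167 at 0 h, or 51.4%. Cdc6 read 443, 453 and 737 at 0 h, 297, 480.5 and 282 at 4 h, 416, 335.5 and 556.5 at 12 h, 348, 303 and 452 at 24 h, and 321, 230.4 and 287 at 48 h. The 48 h arrays lay below all of 0 h, where replicate 3 was far above the other arrays, and the 4, 12 and 24 h arrays overlapped 0 h. The log2 change at 48 h was -0.90 ± 0.24 (SE, limma adjusted p = 0.0333), and without 0 h replicate 3 the gene did not pass. Geminin (Gmnn), which blocks CDT1 once S phase has begun, had log2 changes of -0.52 ± 0.16 (SE, limma adjusted p = 0.0763) at 24 h and -0.55 ± 0.16 (SE, limma adjusted p = 0.0543) at 48 h. It passed the F-test (adjusted p = 0.0399) and neither comparison, and its 24 and 48 h arrays all lay below 0 h.

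The MCM subunits form the ring that unwinds the helix. All 6 were below 0 at both late times, and for all 6 the arrays of 24 h and of 48 h lay below every 0 h array. Mcm2, Mcm4 and Mcm7 passed at 24 h, Mcm6 and Mcm7 at 48 h, and the median change of the 6 was -0.48 and -0.53.

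Mcm7 had the smallest p of the 40 genes at 48 h. Mcm7 read 5421, 4979 and 5956 at 0 h, 4732, 5430.1 and 4071 at 4 h, 3806, 4214 and 5451.5 at 12 h, 3550.5, 3609 and 3292.5 at 24 h, and 3411.5, 3241 and 2863 at 48 h. The 24 and 48 h arrays formed a tight low group, while at 4 and 12 h one array of each time was as high as those of 0 h. The mean fell from 5452 ± 489 to 3484 ± 168 and 3172 ± 280.5, log2 changes of -0.64 ± 0.14 (SE, limma adjusted p = 0.0103) and -0.78 ± 0.14 (SE, limma adjusted p = 0.0018). Its other 3 probe sets on the A arrays had changes of -0.78, -1.04 and -0.51 at 48 h, of which the first and second passed.

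Mcm6 had the largest fall among the 40 A array probe sets at 48 h. Mcm6 read 2661, 2122 and 3904 at 0 h, 2348, 3138 and 1906 at 4 h, 1948, 1814 and 3274 at 12 h, 1530.4, 1577 and 1881 at 24 h, and 1462.5, 1221 and 1398 at 48 h. Its arrays were widely spread up to 12 h and close together at 24 and 48 h. The log2 change was -0.75 ± 0.23 (SE, limma adjusted p = 0.0687) at 24 h and -1.04 ± 0.23 (SE, limma adjusted p = 0.0112) at 48 h, when the mean was 1360.4 ± 125 against 2896 ± 914 at 0 h. Without 0 h replicate 3, its highest array, the change at 48 h was -0.80 and did not pass (adjusted p = 0.0528). Another Mcm6 probe set had changes of -0.50 and -0.71 at 24 and 48 h and did not pass (adjusted p = 0.203 and 0.0547).

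Mcm2 and Mcm4 passed at 24 h near the threshold, with log2 changes of -0.46 ± 0.13 (SE, limma adjusted p = 0.0492) and -0.51 ± 0.14 (SE, limma adjusted p = 0.0472). Mcm2 was lost in 17 of 24 alternative fits and Mcm4 in 13. At 48 h they were at 80.8% and 72.4% of 0 h and did not pass. The other probe sets of Mcm2 and Mcm4 had changes of -0.19 and -0.41 at 24 h and did not pass (adjusted p = 0.616 and 0.339). Mcm5 was at 66.6% at 48 h (adjusted p = 0.0682), and its B probe set, at 8342 ± 2583 at 0 h and 5157.5 ± 469 at 48 h, had a log2 change of -0.65 that did not pass either. Mcm3 was at 72.7% and 74.1% by its brightest probe set. Another Mcm3 probe set fell by 0.72 and 0.83 on the log2 scale and passed at both times (adjusted p = 0.0334 and 0.0127), and a further one had changes of 0.11 and 0.16.

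Of the factors that activate the helicase, Mcm10 and Cdc45 were lower. Mcm10 read 570.1, 483 and 635 at 0 h, 361, 403 and 387 at 4 h, 365, 527 and 573 at 12 h, 318, 343 and 313 at 24 h, and 319, 329.7 and 305 at 48 h. The 4, 24 and 48 h arrays of Mcm10 all lay below 0 h, and at 12 h replicates 2 and 3 were back among them. The mean was 562.5 ± 76.1 at 0 h, 383 ± 21.2 at 4 h, 488 ± 109 at 12 h, 325 ± 15.7 at 24 h and 318 ± 12.3 at 48 h. The log2 changes were -0.76 ± 0.16 (SE, limma adjusted p = 0.00853) and -0.78 ± 0.16 (SE, limma adjusted p = 0.00521) at the late times, and -0.53 ± 0.16 at 4 h (adjusted p = 0.617). A dim B probe set of Mcm10 had changes of 0.06 and 0.36 and did not pass.

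Cdc45 stood at 389 ± 35.6 at 48 h against 613 ± 61.4 at 0 h, a log2 change of -0.63 ± 0.19 (SE, limma adjusted p = 0.0486) that was lost in 15 of 24 alternative fits. Gins1, a subunit of the GINS complex that holds CDC45 to the ring, had changes of -0.31 and -0.27 and did not pass. Gins2, read on the B arrays alone, was at 3298 ± 552 at 0 h and 3339.5 ± 650.5 at 48 h, with changes of -0.11 and 0.01 that did not pass. Its other probe set was at 64.6% of 0 h at 24 h, with all 3 arrays below 0 h, and had changes of -0.60 and -0.22 that did not pass (adjusted p = 0.235 and 0.798).

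PCNA is the clamp that keeps polymerases on the template during synthesis. Pcna read 10344, 10254.5 and 9589.9 at 0 h, 8824, 8789 and 8446 at 4 h, 8132, 8574 and 10271 at 12 h, 7258, 7083 and 7568 at 24 h, and 7216, 7273 and 6568 at 48 h. Only 12 h replicate 3 among the later arrays reached the 0 h values. The mean fell from 10063 ± 412 to 7303 ± 246 and 7019 ± 392, to 72.6% and 69.8%. The log2 changes were -0.46 ± 0.10 (SE, limma adjusted p = 0.00853) and -0.52 ± 0.10 (SE, limma adjusted p = 0.00273), with close agreement among the arrays of 24 h and of 48 h. Under quantile normalization the change at 24 h was -0.28 and did not pass (adjusted p = 0.103).

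The clamp loader genes Rfc1 to Rfc5, which open the clamp and set it on DNA, had changes of -0.18 to -0.56 at 24 h and -0.29 to -0.63 at 48 h, and 0 of 5 passed at either time (limma). The largest at 48 h was that of Rfc3, from 580.5 ± 125 to 364.5 ± 33.0 (adjusted p = 0.0745). Other A array probe sets of Rfc1, Rfc3 and Rfc4 did not pass either. Their changes ran from -0.60 to -0.69 at 24 h and from -0.08 (Rfc1) to -0.38 at 48 h. The B probe set of Rfc2 had changes of -0.02 and -0.48 without passing.

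Among the polymerases the primase subunit Prim1 was the one that passed. Prim1 read 1222, 1367 and 1588 at 0 h, 1120.0, 1216 and 1029.5 at 4 h, 812, 692 and 1241 at 12 h, 709.6, 769 and 953 at 24 h, and 814, 1282 and 809 at 48 h. Its 4 and 24 h arrays lay below 0 h, while 12 h replicate 3 and 48 h replicate 2 did not. The log2 change was -0.77 ± 0.21 (SE, limma adjusted p = 0.0364) at 24 h, lost in 8 of 24 alternative fits, and -0.54 ± 0.21 (SE, limma adjusted p = 0.141) at 48 h. The call rests on this probe set. Another Prim1 probe set on the A arrays had changes of -0.26 and -0.30, overlapped 0 h and did not pass (adjusted p = 0.719 and 0.644). The other subunits of the polymerase that lays the first primers, Pola1, Pola2 and Prim2, were at 96.7%, 71.9% and 73.2% of 0 h at 48 h, and none of the 3 passed. Pola1 had its highest mean at 4 h, 619.8 ± 69.4 against 507 ± 131.5 at 0 h, and a B probe set with changes of -0.26 and 0.11 that did not pass. Prim2 had a B probe set that read 580, 917 and 468.5 at 0 h, 172.5, 129.5 and 145 at 24 h, and 96.8, 177 and 369 at 48 h. Its arrays of 24 h and 48 h lay below those of 0 h, yet its changes of -1.98 ± 0.59 and -1.67 ± 0.59 did not pass (adjusted p = 0.178 and 0.292).

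The polymerases that copy the leading and lagging strands gave no call. Pold1, Pold2, Pole and Pole2 were all below 0 with medians of -0.34 at 24 h and -0.26 at 48 h, and 0 of 4 passed (limma; 2 and 1 at an unadjusted p under 0.05, beside 9.89% and 8.90% of all probe sets). Pole, the catalytic subunit of polymerase epsilon, was the lowest of them, with 544 ± 63.4 at 0 h, 359 ± 38.5 at 24 h and 379 ± 14.7 at 48 h. Its late arrays all lay below 0 h, and its adjusted p was 0.140 and 0.206.

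Fen1 and Lig1 trim and seal the fragments of the lagging strand. Lig1 went from 1391 ± 308 to 864 ± 88.9 at 48 h, a log2 change of -0.66 ± 0.20 (SE, limma adjusted p = 0.0613), with all 48 h arrays below 0 h. The probe sets of Fen1 differed. Fen1 read 1556, 2444 and 1139 at 0 h, 1099, 1908.5 and 2396 at 4 h, 1847, 2225 and 1377 at 12 h, 1753, 1498 and 1452 at 24 h, and 1858, 1056 and 1411 at 48 h. These values of the brightest probe set were scattered within each time (log2 change -0.21 ± 0.29 (SE, limma adjusted p = 0.735) at 48 h), whereas the other probe set fell by 0.72 and passed (adjusted p = 0.0175). The scattered probe set has a suffix that Affymetrix gives where probes may also match other transcripts, as have those that stand for Rrm2, Mcm7, Mcm3 and Gins2. The part of such matches in these values was not tested. With probe sets without these suffixes, an alternative chosen after seeing the data, the counts were 8 lower at 24 h and 11 lower and 1 higher at 48 h.

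Replication protein A covers single-stranded DNA as a trimer, and the transcripts of its 2 larger subunits had probe sets that were called lower. Rpa2 read 865, 845 and 746 at 0 h, 492, 634 and 621 at 4 h, 515, 643 and 669 at 12 h, 479, 501 and 569 at 24 h, and 500.5, 486 and 444 at 48 h. All later arrays of Rpa2, the middle subunit, lay below those of 0 h. Its mean was 819 ± 63.9 at 0 h and 477 ± 29.1 at 48 h, and its log2 changes were -0.65 ± 0.14 (SE, limma adjusted p = 0.0112) and -0.76 ± 0.14 (SE, limma adjusted p = 0.00282). Another Rpa2 probe set had changes of -0.53 and -0.81 and did not pass (adjusted p = 0.241 and 0.0544). Rpa1, the large subunit, was at 75.3% and 73.1% with all late arrays below 0 h, and this probe set did not pass (adjusted p = 0.053 at 48 h). Another Rpa1 probe set passed at both times, with log2 changes of -0.47 (adjusted p = 0.0492) and -0.62 (adjusted p = 0.00878). Rpa3, the small subunit, was at 93.6% and 96.4% and overlapped 0 h at both times. The differences between the subunits were not tested.

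Ribonucleotide reductase, which makes deoxynucleotides, is built from RRM1 and the cell-cycle-regulated RRM2, and both transcripts fell. Rrm2 read 4857, 4089.6 and 4413 at 0 h, 3601, 3929 and 3206 at 4 h, 3207.5, 2886 and 4411 at 12 h, 2869, 3247 and 3030.0 at 24 h, and 2837, 2412 and 2492 at 48 h. The 4, 24 and 48 h arrays of Rrm2 lay below 0 h and 12 h replicate 3 stood among them. The mean went from 4453 ± 385 to 3049 ± 189.6 and 2580.2 ± 226, log2 changes of -0.54 ± 0.14 (SE, limma adjusted p = 0.0311) and -0.78 ± 0.14 (SE, limma adjusted p = 0.00218), of which the first was lost in 8 of 24 alternative fits. Another Rrm2 probe set passed at both times, with changes of -0.70 and -0.83 (adjusted p = 0.0102 and 0.00219). A further one had a change of -0.46 at 48 h and passed at neither time. Rrm1 read 3677, 3737 and 4011 at 0 h, 3887, 3910.0 and 3846 at 4 h, 3798, 3617 and 4031 at 12 h, 3062, 2895 and 3034 at 24 h, and 2909, 3267.5 and 2613 at 48 h. Rrm1 kept its 0 h level through 4 and 12 h and was lower on every array of 24 and 48 h. Its log2 changes were -0.34 ± 0.10 (SE, limma adjusted p = 0.0558) and -0.38 ± 0.10 (SE, limma adjusted p = 0.0297), and the call at 48 h was lost in 8 of 24 alternative fits. Another Rrm1 probe set on the A arrays had changes of -0.36 and -0.46 and did not pass (adjusted p = 0.146 and 0.0562). The B probe set of Rrm1 had changes of -0.58 and -0.67 and did not pass.

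Tyms, the maker of thymidylate, was too dim on the A arrays to be tested, with 65.0 ± 4.83 at 0 h, 62.2 ± 13.4 at 24 h and 37.2 ± 1.00 at 48 h. On the B arrays its log2 changes were -0.47 and -0.62 and did not pass. Chaf1b, a subunit of the factor that sets histones behind the fork, read 606, 636 and 624 at 0 h and 439.6, 440.2 and 397 at 48 h. The 0 h arrays were nearly equal and well above those of 48 h, a log2 change of -0.53 ± 0.15 (SE, limma adjusted p = 0.0422), lost in 11 of 24 alternative fits. The B probe set of Chaf1b went the other way at 48 h, with log2 changes of -0.26 at 24 h and 0.20 at 48 h, and did not pass (adjusted p = 0.827 and 0.883).

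**Figure D3:**
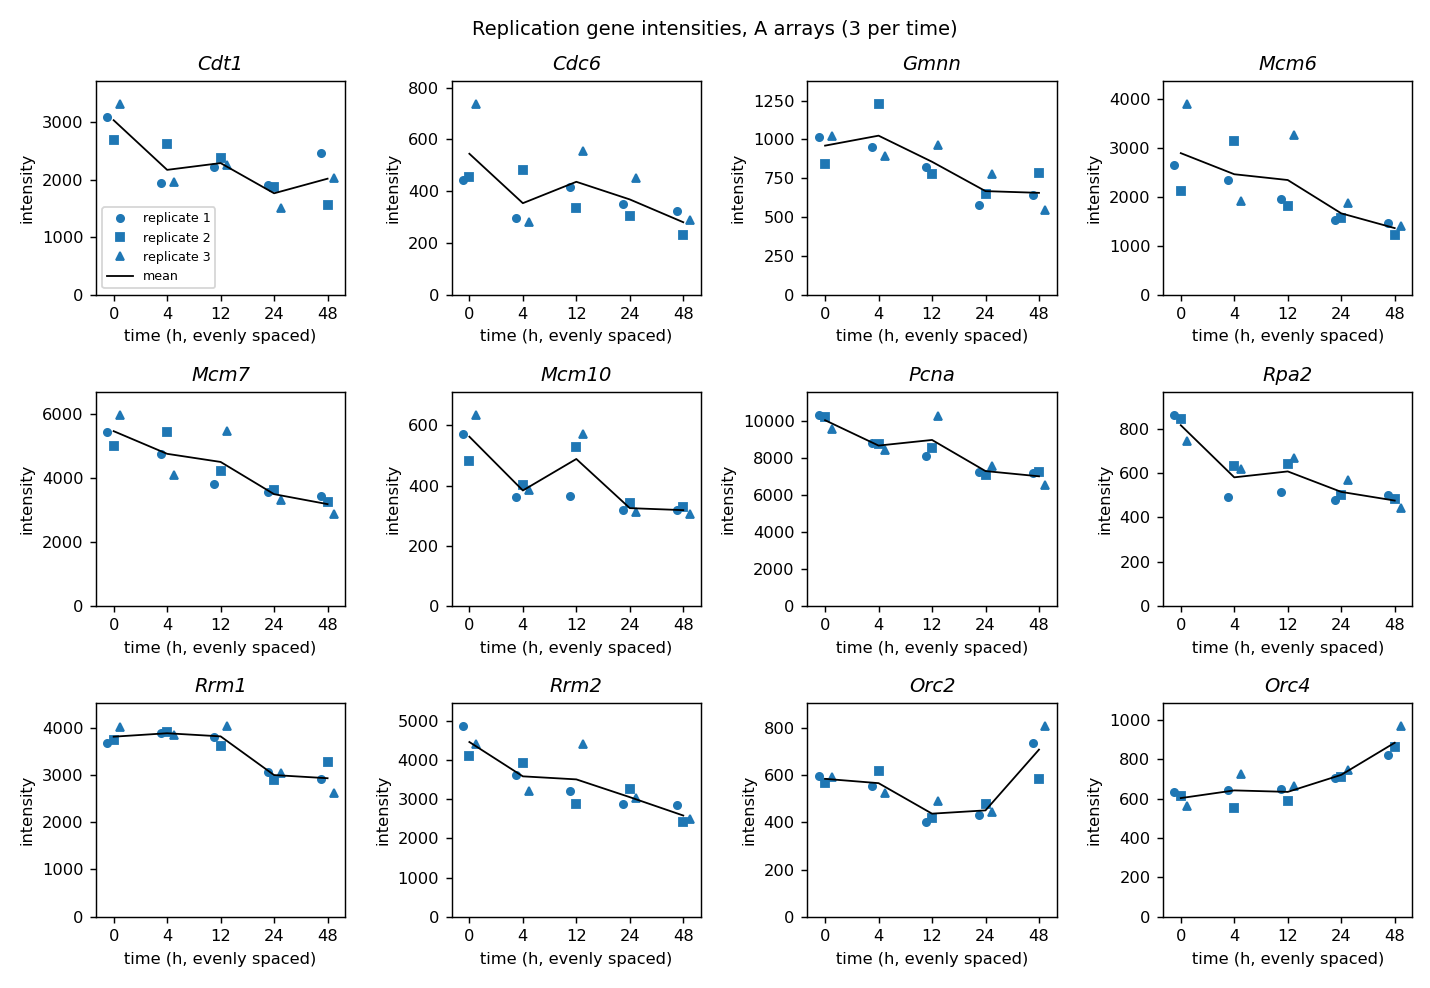
Deposited intensity of 12 replication genes on each A array, with 1 marker shape per replicate number, 3 arrays per time, a line through the means and times spaced evenly on the horizontal axis. Mcm7, Pcna and Rrm2 were lower on all arrays of 24 and 48 h than on those of 0 h, Orc2 dipped at 12 and 24 h, and Orc4 was higher at 48 h (mean 884.5) than at 0 h (mean 603).

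The B arrays gave no call for these genes. Of 10 genes tested there, 0 passed at 24 h (0.970% of all B probe sets in either direction) and 0 at 48 h (0.933%) with limma, and 2 and 3 were lower at an unadjusted p under 0.05 (4.55% and 4.78%). The median standard error at 48 h was 0.266 on the B arrays against 0.179 on the A arrays. A B array of 0 h, replicate 1, is titled extraocular muscle while its source name gives leg muscle. It was kept under its title, and without it the counts were 0 as well. Intensities of the A and B types were scaled apart and are not set against each other.

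The genes varied together from array to array. Over 15 arrays the median Pearson r of the 780 pairs of the 40 genes was 0.57, and 0.46 after each gene's time means were taken out. The genes share arrays, and these values describe them with no test. No such value was computed over other genes, so they show nothing particular to this group. Median r with the other genes was highest for Mcm4 (0.79), Mcm6 (0.77) and Mcm7 (0.77) and lowest for Orc4 (-0.64), Orc3 (-0.11), Fen1 (-0.04), Orc2 (0.01) and Orc5 (0.11).

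In most times the array with the most replication signal was the one with the least muscle signal. The median log2 difference of the 40 genes from their 0 h means was -0.03, -0.11 and 0.15 on the 3 arrays of 0 h, -0.25, 0 and -0.34 at 4 h, and -0.36, -0.29 and 0.05 at 12 h. It was -0.47, -0.49 and -0.36 at 24 h and -0.32, -0.45 and -0.56 at 48 h, below every array of 0 h. Over the 12 skeletal muscle markers the summed intensity ran from 45320 to 67040 at 0 h, 39630 to 69420 at 4 h, 50440 to 72560 at 12 h, 51430 to 65810 at 24 h and 49700 to 56510 at 48 h. The array with the lowest marker sum had the highest replication median at 0, 4, 12 and 24 h, and at 48 h it had the lowest. Between the other arrays of 4 h, and of 12 h, the higher sum went with the higher replication median. The array with the lowest marker sum also had the lowest smooth muscle and pericyte sum at 0, 4, 12 and 48 h, but not at 24 h. The part of muscle content in the changes of the replication genes was not tested.

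**Figure D4:**
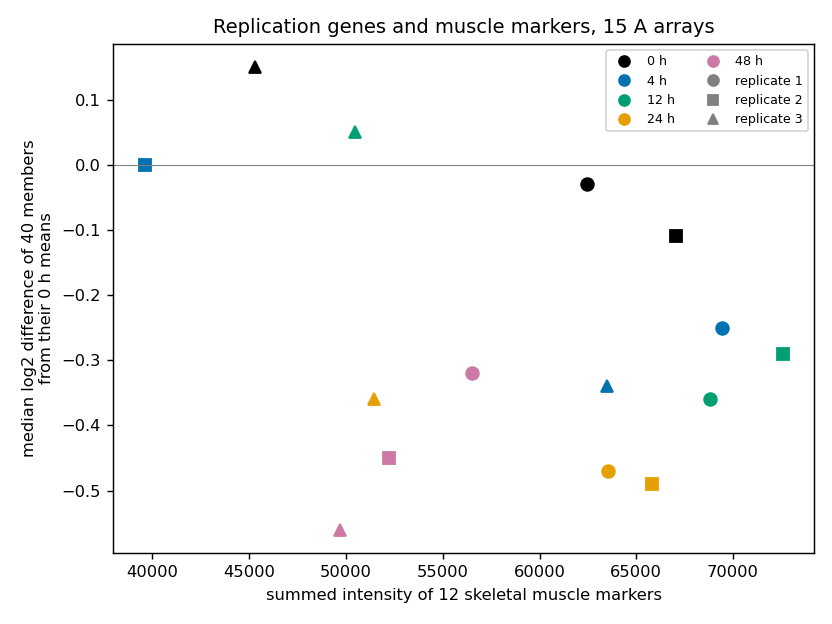
Median log2 difference of 40 replication genes from their 0 h means (vertical axis) against the summed intensity of 12 skeletal muscle markers (horizontal axis) on each of 15 A arrays, coloured by time with 1 shape per replicate number. The 3 arrays at or above 0 (0 h replicate 3, 4 h replicate 2 and 12 h replicate 3) have marker sums of 39630 to 50440, and the 48 h arrays are low on the vertical axis at sums of 49700 to 56510.

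Markers of the labelled tissue were present, with 10 of 12 skeletal muscle genes above the filter and Myf5 and Myf6 below it. Myod1, which commits cells to muscle, was the 1 gene of these 10 called at 48 h, and it was lower (log2 change -0.73, adjusted p = 0.0232). At that time 5 of the 10 were below 0, with a median change of -0.01. Of the markers of other cells, 3 of 9 fibroblast genes, 5 of 7 smooth muscle and pericyte genes, 1 of 7 endothelial, 3 of 8 macrophage and leukocyte, 4 of 6 Schwann cell and neuron, and 0 of 4 adipocyte genes passed the filter. Pecam1, Ptprc and Adipoq were among those below it. Smooth muscle and pericyte sums ran from 12030 to 18320 at 0 h and 14740 to 17500 at 48 h, fibroblast sums from 3498 to 3851 and from 4665 to 4987, and Schwann cell and neuron sums from 872 to 962 and from 559 to 654. Endothelial sums went from 312 to 503.5 at 0 h and 364 to 542 at 48 h, macrophage sums from 630.4 to 907 and 526 to 849, and adipocyte sums from 43.0 to 116 and 25.3 to 156. Col3a1 (log2 change 0.57), Tagln (1.10), Pdgfrb (1.29) and Tubb3 (0.93) were higher at 48 h, and Nefl (-2.24) and Nefm (-2.29) lower. These are the called genes of their lists, and the other genes of a list did not all go with them. At 48 h 2 of 3 tested fibroblast genes were below 0 (median -0.05). So were 2 of 5 of smooth muscle and pericytes (median 0.4) and 2 of 4 of Schwann cells and neurons (median -1.04). The part of these cell types in the fall of the replication genes was not tested.

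Other lists of the same pathway held 1 to 2 genes called lower at 48 h, when 2.50% of all probe sets were lower. Of 20 tested genes of the fork and of origin firing, 0 passed at 24 h and 1 was lower at 48 h: Chtf18, part of an alternative clamp loader, from 238 ± 25.1 to 121 ± 26.2 (log2 change -0.91 ± 0.23, adjusted p = 0.0249). Their median changes were -0.33 and -0.31. Of 20 genes of nucleotide supply and chromatin, Cad, which starts pyrimidine synthesis, was lower at 24 h (-0.69 ± 0.14, adjusted p = 0.00882) and 48 h (-0.51 ± 0.14, adjusted p = 0.0418), and Dnmt1, which copies DNA methylation, at 48 h (-0.52 ± 0.12, adjusted p = 0.0119).

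Of the regulators of the G1 to S step, 10 of 16 lay below 0 at 24 h and 12 of 16 at 48 h, with median changes of -0.18 and -0.24. Over all probe sets 51.8% and 47.5% were below 0. Of 16 tested genes of the E2F, Rb and S-phase kinase list, Ccne1, cyclin E1, was lower at 24 h (-0.81, adjusted p = 0.045) and 48 h (-0.99, adjusted p = 0.0119), and E2f8, a repressive E2F, at 48 h (-0.48, adjusted p = 0.0457). E2f6, also a repressor, was higher at 24 h (0.54, adjusted p = 0.0391). E2f1, an activator, was at 633 ± 37.8 at 0 h and 467 ± 46.8 at 48 h and did not pass (adjusted p = 0.0955). Of 23 mitosis genes, all 23 were below 0 at 48 h with a median of -0.30, and 2 passed, Cdk1 (-0.53, adjusted p = 0.0401) and Bub1b (-0.62, adjusted p = 0.0212). Whether the replication genes changed more than the mitosis genes was not tested.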

How the data were processed

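RNA was hybridised to 15 A and 15 B arrays by a standard Affymetrix protocol, per the labels. The authors deposited 1 linear intensity per probe set. Software, background correction and summary method: not given in the sources used here. Every A array had a trimmed mean of 500.2 and every B array one of 500.1. The deposited values were therefore already brought to a common level, and a shift of all RNA in a cell would not show. The platform annotation supplied the gene symbols.

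Each time had its own mean in a model of log2(intensity + 16) across the 15 arrays of a type, run in limma (version 3.58.1, R 4.3.3) with lmFit and a trended eBayes. Left out were the 64 control probe sets of each type and those with a mean below the 40th percentile (101 on A, 199.6 on B); 13577 and 13507 remained. Adding 16 understates changes of dim probe sets. Benjamini-Hochberg adjustment ran over all probe sets tested, with a threshold of 0.05. The model was also run on simulated data with independent noise for each probe set. That run cannot speak to the dependence of the counts on single arrays. The number of arrays limits the precision. Means are ± SD and log2 changes ± SE, with n = 3 arrays per time.

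The A array stood for genes on both types. Genes described in full passed a comparison or the F-test, or had the smallest F-test p of a role group in which none passed; a few others, Prim2, Orc5 and Fen1 among them, were named after their values were seen. The genes and gene lists were chosen with earlier results of these data known. Motifs were searched with Python 3.11.15. Alternatives changed the scaling (quantile, median), the pseudocount, the filter, the trend, the probe set per gene or the times fitted, added the replicate number as a block, or left out each array. Probe sets without the suffixes for shared probes were an alternative chosen after seeing the data.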

Additional observations from a re-analysis of the deposited data

How the results depend on the processing

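The medians of the replication genes and most counts on the A arrays kept their direction; no result reversed, and the cause of each change below was not tested. The 24 h count of 9 was 5 with median scaling, without the filter on low intensities (more probe sets tested) and without the intensity trend. The 11 genes past the F-test were 7 without the filter and 6 without the trend. The 1 call from 24 to 48 h, Orc2, became 0 under quantile normalization, median scaling, a pseudocount of 1, no filter, no trend, the replicate block, and the times compared alone. Without each array in turn, the counts ran from 0 to 0 at 4 h, 0 to 2 at 12 h, 4 to 12 at 24 h, 5 to 15 at 48 h, 0 to 1 from 24 to 48 h and 5 to 14 in the F-test, with the lowest F-test counts without 0 h replicate 1 (5), 48 h replicate 1 or 3 (6), and 4 h replicate 1 or 24 h replicate 1 or 2 (7). The medians ran from -0.31 to -0.14 at 4 h, -0.32 to -0.09 at 12 h, -0.49 to -0.35 at 24 h and -0.51 to -0.37 at 48 h. On the B arrays the counts were 0 throughout. Of single genes, 788 values kept their side of the threshold, 98 lost it and 26 gained it.

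Pairing of the arrays by replicate number was neither clear nor excluded. Over 30 same-numbered pairs of A arrays the correlation of deviations from the time means ran from -0.36 to 0.42. Its median was 0, as it was for pairs of different numbers. Of the same-numbered pairs 10 were over 0.1, and 6 of 15 arrays correlated best with their own number. Replicate 3 had the lowest skeletal muscle marker sum at 0, 12, 24 and 48 h, and replicate 2 had it at 4 h. With the replicate number as a block the counts were 8 at 24 h, 10 at 48 h, 8 in the F-test and 0 from 24 to 48 h. The spread between 3 arrays, and dim signal for Orc1 and Tyms on the A arrays and for most B probe sets, limit what could be called.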
